A study of Mus musculus with 18 samples.

Results

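Dsg1a, Dsc3, Trp63, Spink5, Anxa8 and Trim29, 6 genes of the stratified epidermis, were followed across neutrophil libraries from 6 tissues. They are no keratins and were chosen by their high levels in the Skin libraries, so those levels are given here as a description, without a test. The 6 symbols were found once each among the 32328 Ensembl gene identifiers of the deposited table.

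RNA sequencing was carried out on neutrophils of C57BL/6 mice aged 8 to 12 weeks, with 3 libraries for each of the tissues labelled BM (bone marrow), Blood, Lung, Spleen, Skin and Intestine, 18 in all. Cells were sorted by flow cytometry for the leukocyte marker CD45, the myeloid integrin CD11b and the neutrophil antigen Ly6G, with DAPI to leave out dead cells, and purity was typically above 95% per the labels. No treatment or allele is named for any group, and the labels do not say whether the 3 libraries of a tissue came from separate animals, so every p-value measures only the spread between these libraries. The deposited values are estimated read counts with 0.5 added, scaled to 1000000 of each library's effective size. They are called scaled counts here and are not divided by gene length. A gene with 0 estimated counts is therefore not at 0 but at a floor, between 0.0364 in Spleen replicate 2 and 0.216 in Skin replicate 2. All folds below are of scaled counts and depend on the effective sizes. In Skin replicates 1, 2 and 3 these were 6.80e+06, 2.31e+06 and 5.38e+06, below the summed counts of 1.04e+07, 5.68e+06 and 5.96e+06. In Lung replicates 1 and 2 they were above the summed counts, at 3.83e+06 and 1.26e+07 against 2.94e+06 and 1.08e+07. Lung replicate 3 was at 8.91e+06 against 9.38e+06. Relative to all estimated counts, the Skin to Lung folds are smaller for all 6 genes.

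Desmosomes are the spot junctions that hold keratinocytes together: desmosomal cadherins of the desmoglein and desmocollin families bridge the gap between cells, and plakoglobin, plakophilins and desmoplakin tie them to keratin filaments. Trp63 encodes p63, the p53-family transcription factor on which stratified epithelium and its proliferative basal layer depend. Spink5 encodes LEKTI, an inhibitor of the kallikrein-related proteases that cut desmosomal proteins as the outer layers are shed. Trp63 is tied to the basal layer in which epidermal stem cells lie, but others of the 6, such as Dsg1a, belong to the upper layers. The 6 are therefore called epidermal genes here and not stem cell genes. Neutrophils have no desmosomes.

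The libraries held between 2.94e+06 (Lung replicate 1) and 1.21e+07 (Spleen replicate 2) estimated counts, and the 3 Skin libraries stood apart from the rest. The predicted gene Gm10800 alone took 23.7%, 19.6% and 11.2% of the counts of Skin replicates 1, 2 and 3, against 0.42% to 3.6% in the other 15 libraries. Skin replicate 2 had the fewest genes above the floor of the 18 libraries, 9179, and Skin replicate 1 had low levels of defining neutrophil genes, with 608 scaled counts of S100a9 and 54.4 of Cxcr2 against 8093 and 1724 in Skin replicate 2. The Ly6G gene itself, Ly6g, was at 0.22 scaled counts in Skin replicates 1 and 2, the floor in replicate 2, and at 26.9 in Skin replicate 3. The basal keratins Krt5 and Krt14 were at 4048 and 3818 scaled counts in Skin replicate 1, at 470 and 343 in replicate 2 and at 327 and 78.2 in replicate 3.

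Dsg1a (ENSMUSG00000069441, chr18:20310811-20343350, plus strand, mm10) encodes a desmoglein of the upper epidermal layers and was at 480, 1331 and 67.3 scaled counts in Skin replicates 1, 2 and 3. Outside Skin it was above the floor in 4 of 15 libraries, at 0.34 in Spleen replicates 1 and 2, 0.46 in Lung replicate 2 and 5.91 in Lung replicate 3, and had 0 counts in all BM, Blood and Intestine libraries. The Skin mean of 626 ± 644 (SD, n = 3) was 289-fold the Lung mean and, set against 3 counts per library where a tissue had none, at least 1702-fold higher than BM and at least 1614-fold higher than Blood. The spread within Skin, 19.8-fold from the lowest to the highest library, was wide, but the lowest Skin library still lay 11.4-fold above the highest of the 15 others.

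Dsc3 (ENSMUSG00000059898, chr18:19960930-20002351, minus strand) encodes the desmocollin of the lower epidermis and varied most within Skin, at 618, 230 and 3.44 scaled counts in replicates 1, 2 and 3. These values stand for 4199, 532 and 18 estimated counts, a 180-fold range. Elsewhere Dsc3 was above the floor at 0.12 and 0.11 in Spleen replicates 1 and 2 and at 0.99 and 1.63 in Lung replicates 2 and 3. The Skin mean was 284 ± 311 (SD, n = 3), 310-fold the Lung mean, but Skin replicate 3 was only 2.11-fold above Lung replicate 3.

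Trp63 (ENSMUSG00000022510, chr16:25683763-25892102, plus strand) was at 242, 532 and 18.7 scaled counts in Skin replicates 1, 2 and 3, a mean of 264 ± 257 (SD, n = 3). It was above the floor in 8 of the 15 other libraries, more than any of the other 5 genes, but mostly by a few counts. Lung replicate 1 held 12.2 scaled counts, while Lung replicates 2 and 3 held 0.12 and 0.28, and the 3 Spleen libraries lay between 0.12 and 0.40. The Skin mean was 63.1-fold the Lung mean, and the lowest Skin library was 1.54-fold above Lung replicate 1.

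Spink5 (ENSMUSG00000055561, chr18:43963235-44022501, plus strand) was at 143, 649 and 18.1 scaled counts in Skin replicates 1, 2 and 3, a mean of 270 ± 334 (SD, n = 3). Its highest values outside Skin were 12.9 in Lung replicate 1 and 4.49 in Intestine replicate 3, and the other libraries held 0.95 or less. The Lung library that was highest for Trp63 was thus also the highest for Spink5. In scaled counts the Skin mean was 58.2-fold the Lung mean. The lowest Skin library was 1.40-fold above Lung replicate 1, the narrowest such gap of the 6 genes. Relative to all estimated counts this gap reversed, with 97 of 5.96e+06 counts in Skin replicate 3 and 49 of 2.94e+06 in Lung replicate 1.

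Anxa8 (ENSMUSG00000021950, chr14:34085981-34100571, plus strand) encodes an annexin, one of a family of proteins that bind membrane phospholipids in the presence of calcium. It was at 277, 459 and 88.3 scaled counts in Skin replicates 1, 2 and 3, a mean of 275 ± 186 (SD, n = 3), and was the gene of the 6 with most counts outside Skin. All 3 Lung libraries (6.40, 11.1 and 4.21) and all 3 Intestine libraries (17.2, 0.37 and 4.11) were above the floor, whereas all BM and Blood libraries had 0 counts. Skin was 38.0-fold Lung, 38.1-fold Intestine, and at least 747-fold higher than BM. The gene A630023A22Rik lies across Anxa8 on the opposite strand and had 0 counts in the Skin libraries.

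Trim29 (ENSMUSG00000032013, chr9:43310848-43336115, plus strand) encodes a tripartite-motif protein and had the lowest Skin mean of the 6, 92.1 ± 81.1 (SD, n = 3), from 185, 55.2 and 36.0 scaled counts. Outside Skin it was above the floor only in Lung, at 0.39, 5.75 and 2.86, and the other 12 libraries had 0 counts. Skin was 30.7-fold Lung and at least 250-fold, 237-fold, 323-fold and 297-fold higher than BM, Blood, Spleen and Intestine.

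**Figure D1:**
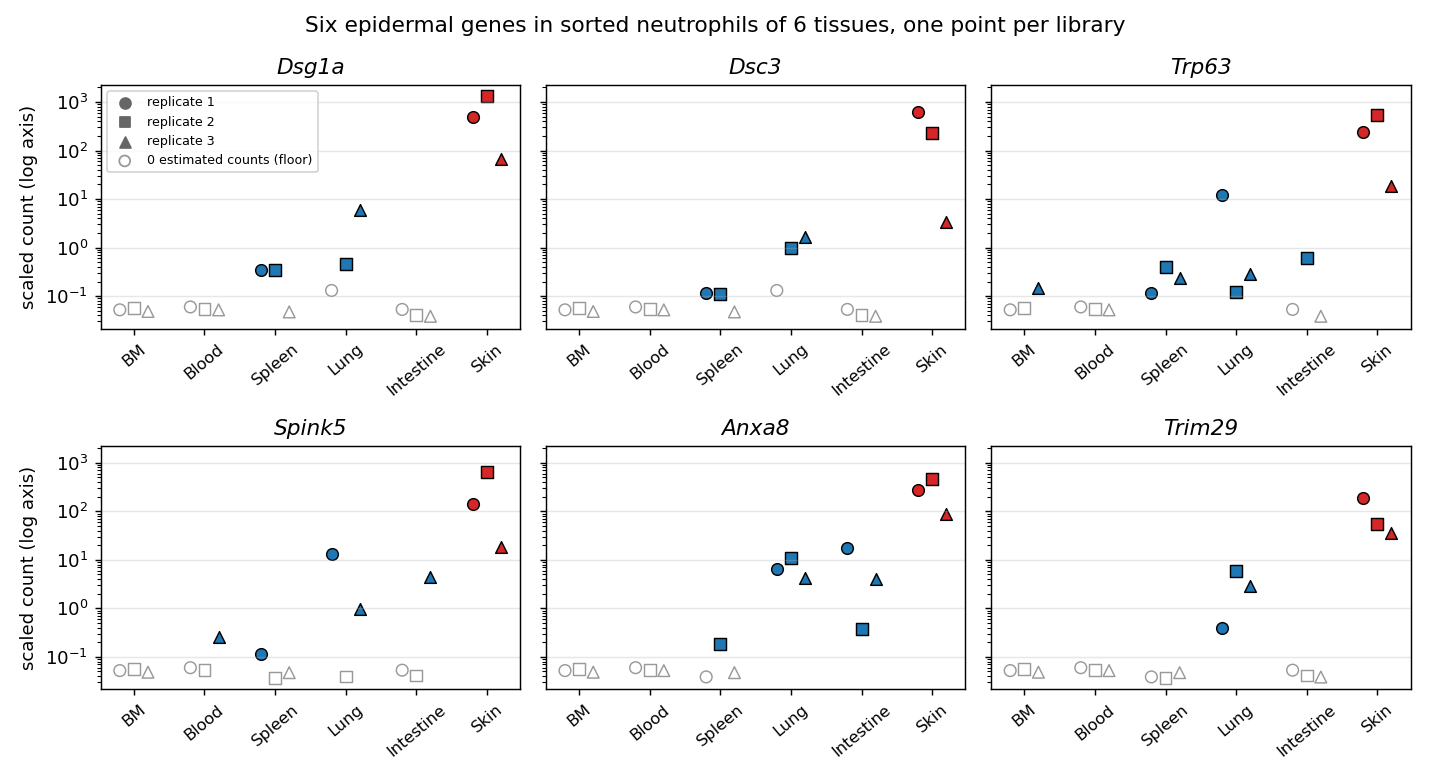
Scaled counts of Dsg1a, Dsc3, Trp63, Spink5, Anxa8 and Trim29 in each of the 18 libraries on a log axis. Each point is a library, its shape gives the replicate number, Skin is red, and open grey points had 0 estimated counts; the 3 Skin points of each gene lie above all 15 others, with Skin replicate 3 the lowest of the 3.

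For all 6 genes, each of the 3 Skin libraries lay above each of the 15 other libraries in scaled counts. Relative to all estimated counts, Spink5 lost this separation, as given below. Over all genes tested, the separation in scaled counts held for 288 of 16157, or 1.78%. The genes were chosen for high Skin levels and nothing is read from that count. On the log2(scaled count + 1) scale, the difference of Skin from the mean of the 5 other tissues was 8.12 for Dsg1a, 6.70 for Anxa8, 6.65 for Trp63, 6.36 for Spink5, 6.19 for Dsc3 and 5.79 for Trim29, which gave them ranks between 5 and 17 of 16157. As the genes were chosen for high Skin levels, nothing is read from these ranks either. Leaving out any 1 of the 18 libraries moved the difference most for Dsc3, from 4.76 without Skin replicate 1 to 8.33 without Skin replicate 3.

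The Skin libraries were not ordered alike for all 6 genes. Dsg1a, Trp63, Spink5 and Anxa8 were highest in replicate 2, and Dsc3 and Trim29 in replicate 1. Skin replicate 3 was the lowest for all 6 genes as scaled counts. As counts per 1000000 of all estimated counts, a scale that does not use the authors' effective library sizes, it was the lowest for 5 of 6, with Trim29 at 32.4 in replicate 3 and 22.4 in replicate 2. On that scale Spink5 in Skin replicate 3, at 16.3, lay below Lung replicate 1, at 16.7. Trp63 was at 16.8 in Skin replicate 3 and 15.7 in Lung replicate 1. For the genes other than Spink5, every Skin library still lay above every library of the other tissues. Together the 6 genes took 0.127%, 0.132% and 0.0209% of all estimated counts of Skin replicates 1, 2 and 3, and at most 0.00409% of those of any other library (Lung replicate 1).

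Per kilobase of exon, the scale on which levels of different genes can be set side by side, Anxa8 had the highest Skin mean of the 6, 146 scaled counts per kb, followed by Dsg1a at 110, Spink5 at 56.5, Dsc3 at 52.6, Trp63 at 31.5 and Trim29 at 26.5. Anxa8 was the highest per kb in each of the 3 Skin libraries, at 147, 244 and 46.9. The place of the others changed from library to library: Dsc3 was the second at 114 per kb in replicate 1 and the last at 0.637 per kb in replicate 3, and the range of every gene overlapped that of its neighbours in the order. The keratins Krt14 and Krt5 had Skin means of 804 and 735 per kb, carried by replicate 1, where they were at 2172 and 1843. In Skin replicate 2 they were at 195 and 214 per kb, below Anxa8 at 244 and Dsg1a at 234, and in replicate 3 Krt14 was at 44.5, below Anxa8 at 46.9, and Krt5 at 149, above it.

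The differences among the other 5 tissues were not used to choose the genes and could be tested. Anxa8 was the only one of the 6 that reached 1 scaled count in at least 3 of the 15 libraries, which the test required, and its level differed among the 5 tissues (limma F test, adjusted p = 0.00343). It reached that level in 3 Lung and 2 Intestine libraries and in none of BM, Blood or Spleen, so the filter admitted it through the tissues where it was high, which favours the calls for them. With no filter the F test gave an adjusted p of 0.0120 in limma, the Lung and Intestine differences from Blood 0.0242 and 0.0334, and those from the other 4 tissues 0.0335 and 0.0663, of which the last did not pass. This is no rare call, since 40.6% of the 15747 genes tested passed it. Anxa8 was higher in Lung than in Blood by 2.88 ± 0.73 on the log2 scale (SE, limma adjusted p = 0.0102) in 3 of 3 libraries, where 10.5% of genes were called higher. It was higher in Intestine than in Blood by 2.25 ± 0.73 (SE, limma adjusted p = 0.0187), also in 3 of 3 libraries, where 22.5% of genes were called higher.

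Against the mean of the other 4 tissues, Anxa8 was higher by 2.30 ± 0.58 in Lung (SE, limma adjusted p = 0.0152; 6.46% of genes called higher) and by 1.52 ± 0.58 in Intestine (SE, limma adjusted p = 0.0421; 21.6% called higher). BM and Spleen differed from Blood by -0.00 and 0.04 on the log2 scale, with adjusted p of 0.999 and 0.997 in limma. The mean levels in Lung, 7.23 ± 3.50, and in Intestine, 7.22 ± 8.83 (SD, n = 3 each), were nearly equal, and the Intestine range enclosed the Lung range. The call for Intestine rested on replicate 1. Without that library the difference from Blood was 1.33 (limma adjusted p = 0.110) and the difference from the other 4 tissues was 0.60 (limma adjusted p = 0.412). The difference from Blood also missed the threshold without Blood replicate 2 (limma adjusted p = 0.0505), and the call against the other 4 tissues was lost in 12 of the 15 fits that left out 1 library, all 3 of BM, of Blood and of Spleen, Lung replicate 3 and Intestine replicates 1 and 3, with adjusted p over the 15 fits from 0.00257 to 0.412. The Lung difference from Blood was called in all 15 such fits, with adjusted p from 0.00167 to 0.0449, and the Lung difference from the other 4 tissues in 13 of 15, the exceptions being the fits without Lung replicate 1 (limma adjusted p = 0.0626) and without Lung replicate 2 (limma adjusted p = 0.109). In the fit of all 18 libraries, whose spread includes Skin, none of these 4 differences passed (adjusted p from 0.0582 to 0.120), while the F test did (adjusted p = 0.0271).

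The 20 genes of a list for gut and lung epithelium were also higher in sum in Lung and Intestine, at 3208, 2111 and 616 scaled counts in Lung replicates 1, 2 and 3 and at 677, 465 and 534 in Intestine, against 10.3 to 118 in BM, Blood and Spleen. Their order within Lung was not that of Anxa8, which was highest in replicate 2. The surfactant gene Sftpc had a mean of 1287 in Lung and the epithelial keratin gene Krt8 one of 69.5 in Intestine, while the surfactant gene Sftpb was at 0.23 in Lung, below its 1.54 in Blood. The part of epithelial RNA in the Anxa8 result was not tested. Dsg1a, Dsc3, Trp63, Spink5 and Trim29 had too few counts for the test outside Skin. With no filter on low values, Trim29 (adjusted p = 0.0158) and Dsc3 (adjusted p = 0.0456) also passed the limma F test and Dsg1a, Trp63 and Spink5 did not, with adjusted p of 0.326, 0.519 and 0.492. In the fit of all 18 libraries neither Trim29 (adjusted p = 0.253) nor Dsc3 (adjusted p = 0.967) passed in limma.

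Dsg1a and Dsc3 lie in the cluster of 9 desmosomal cadherin genes on chromosome 18, and the cluster was not evenly represented in Skin. Dsg1a and Dsc3 had the highest Skin means per kb of the 9. Dsc2, which simple epithelia also use, had 0 counts in all 3 Skin libraries and 6.04 ± 3.53 scaled counts in Intestine. Dsg3, the desmoglein of the basal layers, was at 136 scaled counts in Skin replicate 1, at the floor in replicate 2 and at 0.49 in replicate 3, and Dsc1, the desmocollin of the upper layers, went from 11.1 in replicate 1 to 264 in replicate 2 and 1.58 in replicate 3.

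Dsg2 was at 69.5, 152 and 33.4 scaled counts in Skin and at 27.1 ± 29.4 in Intestine. Dsg4, known from the hair follicle, was at 3.16 and 9.39 in Skin replicates 1 and 3 and at the floor in replicate 2. Dsg1b was at 58.9, 53.4 and 12.1 in Skin and was also present in Blood, at 3.91 ± 1.56, and Dsg1c did not exceed 3.07 in Skin. The 3 Dsg1 genes are near copies. Of the 61-base windows of the Dsg1a transcript, a length chosen to match the 61-nt reads, 32.2% occur in another annotated transcript, 28.9% in Dsg1b and 15.8% in Dsg1c, so the split of reads among them is uncertain. No such window of the other 5 genes occurred elsewhere.

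**Figure D2:**
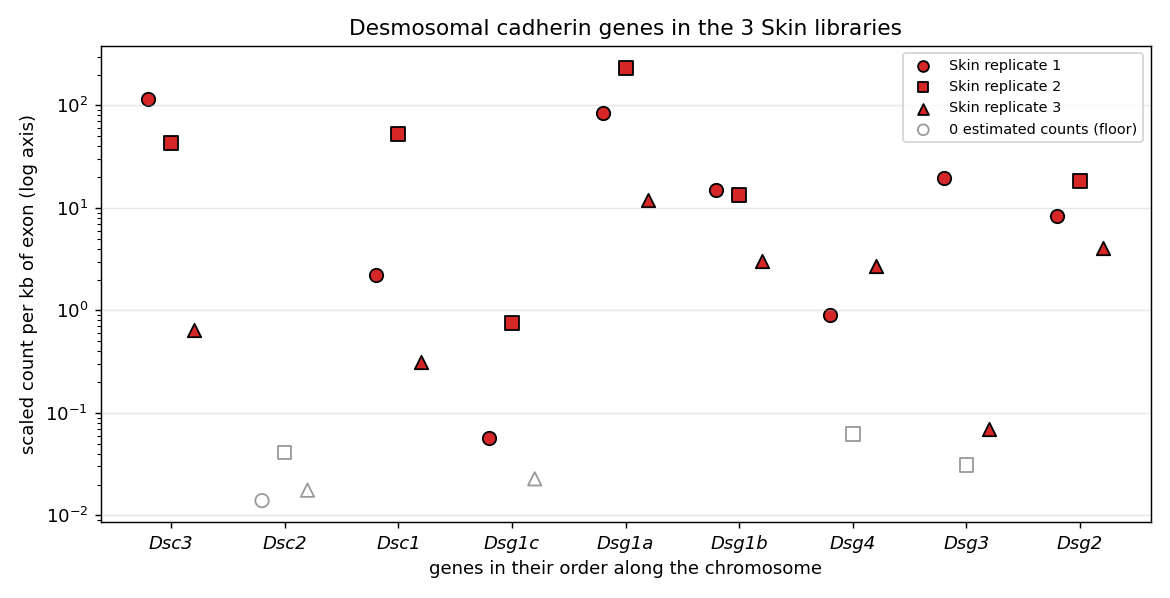
Scaled counts per kb of exon, on a log axis, of the 9 desmosomal cadherin genes in the 3 Skin libraries, in their order along the chromosome. Each point is a library and open grey points had 0 estimated counts; Dsc3 and Dsg1a reach the highest values, Dsc2 is at the floor in all 3 libraries, and Dsc1 and Dsg3 are each high in a single library.

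The partners of the desmosomal cadherins, and the wider junction list of 26 genes, could be tested since they were not among the 6. The list was drawn up with earlier results of these data known and is not independent evidence. Of 20 junction genes tested, 8 were higher in Skin than in the mean of the other 5 tissues and none was lower by limma (0 at an unadjusted p under 0.05), with a median log2 difference of 1.44. With a weight per library 2 junction genes were called higher, and 1 in the fit of the Skin and Blood libraries alone. Over all 16157 genes tested, 5.9% were called higher and 12.9% lower (953 and 2084 genes), and the median was -0.47. Of the 15747 genes that reached the filter without the Skin libraries, 5.41% were called higher, and so were 7 of 19 junction genes. Without Skin replicate 2, 1386 genes were called lower. The split moved with the scaling, to 1255 higher and 1578 lower with median-ratio scaling, 1358 and 1548 with quantile normalization and 524 and 4027 with scaling to all counts, with medians of -0.29, -0.16 and -0.87. Desmoplakin, Dsp, which ties the plaque to keratin filaments, was at 1967, 1333 and 270 scaled counts in Skin and 70.8 at most elsewhere, a difference of 7.07 ± 0.91 (SE, limma adjusted p = 2.82e-05). Perp, a desmosomal membrane protein and target of p63, rose by 5.29, plakophilin 1 (Pkp1) by 4.72 and Dsg1b by 3.94 on the log2 scale, with adjusted p of 0.000628, 0.000476 and 0.000677 in limma. The other 4 called higher were Dsg2, Dsc1, plakoglobin (Jup) and Pkp3, of which Pkp3 lost its call without Skin replicate 1 (limma adjusted p = 0.286), without Skin replicate 2 (limma adjusted p = 0.132) and without Spleen replicate 2 (limma adjusted p = 0.0525).

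The tight-junction gene Tjp1 and the catenin gene Ctnnd1, found in epithelia at large, had differences of 0.60 ± 0.87 and 0.50 ± 0.75 (SE) and did not pass (limma adjusted p = 0.646 and 0.660). Both turned negative without Skin replicate 1, at -0.49 and -0.69. Ctnnd1 was called higher without Skin replicate 2, at 1.92 (limma adjusted p = 0.0448). Pkp2 and Dsc2 had 0 counts in all 3 Skin libraries.

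Beside Trp63, 7 of 32 tested genes of the basal layer and epidermal stem cell list were higher in Skin and 1 was lower, with a median log2 difference of 1.01. The shares over all genes tested were 5.9% higher and 12.9% lower. Col17a1, the hemidesmosomal collagen of basal cells, was at 664, 445 and 41.8 scaled counts in Skin and 11.5 at most elsewhere, a difference of 6.99 ± 0.78 (SE, limma adjusted p = 6.91e-06). Sox9, a transcription factor of hair follicle stem cells, rose by 3.66 and Dst, the hemidesmosomal linker dystonin, by 2.34 (limma adjusted p = 0.000580 and 0.000628). Dst was at 1218, 324 and 237 scaled counts in Skin, with a mean of 362 in Intestine and 450 at most outside Skin. Skin replicate 3 of Sox9, at 16.7, lay below the highest library outside Skin, at 22.9. The basal integrin subunit Itga6 rose by 1.95 (limma adjusted p = 0.0164), a call that was lost without Skin replicate 1 (adjusted p = 0.102) and without Skin replicate 2 (adjusted p = 0.0624). Notch1 fell by 1.72 (limma adjusted p = 0.0307) but was at -0.53 without Skin replicate 2 (limma adjusted p = 0.356). Postn and Lamb3 had log2 differences of -0.10 and 0.03 and did not pass (limma adjusted p = 0.957 and 0.978), though Postn was called lower without Skin replicate 1, at -2.67 (limma adjusted p = 0.00453).

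The follicle stem cell receptors Lgr5 and Lgr6, named here for the check of stem cell genes and after their values were seen, did not pass (limma adjusted p = 0.197 and 0.496). Lgr5 was at 14.2, 1.52 and 4.97 scaled counts in Skin with 43.9 at most elsewhere, and Lgr6 at 2.28, 66.9 and 0.093, the last being the floor. Lgr5 was called lower without Skin replicate 1, at -1.79 (limma adjusted p = 0.0485), and Lgr6 turned to -0.73 without Skin replicate 2. The basal list as a whole held 4 genes called higher without Skin replicate 1, 2 with a weight per library and 0 in the fit of the Skin and Blood libraries alone.

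Of 26 tested epidermal transcription factors other than Trp63, 8 were higher and none lower by limma (1 at an unadjusted p under 0.05), with a median log2 difference of 0.87. Among all genes tested 5.9% were called higher and 12.9% lower. Tfap2a rose by 3.42, Grhl2 by 2.87 and Grhl1 by 2.64, all 3 factors of surface epithelium, and Klf4, a factor of barrier formation that myeloid cells also express, by 2.51 (limma adjusted p from 0.000782 to 0.00418). Of these, Tfap2a alone had all 3 Skin libraries above all 15 others. Klf4 was at 264, 142 and 85.7 scaled counts in Skin, with means of 103 in Lung and 113 in Intestine and 178 at most outside Skin. Foxn1 and Klf5 did not pass, at 0.51 and 0.51, and turned negative without Skin replicate 1, at -0.44 and -0.48. Klf5 was called higher without Skin replicate 2, at 2.26 (limma adjusted p = 0.0178), and Klf5 was -0.24 without Skin replicate 3. Without Skin replicate 1, 5 factors were called higher, and none was with a weight per library or in the fit of the Skin and Blood libraries alone. Of the 26 factors 4 reached the filter only with the Skin libraries, Grhl1 among them, and of the other 22 factors 5 were higher.

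Spink5 stands among the genes of late differentiation and of its target proteases. Of 17 tested cornified envelope genes, 10 were higher and none lower by limma (0 at an unadjusted p under 0.05), with a median log2 difference of 2.48, and 6 were called higher without Skin replicate 1. Of all genes tested 5.9% were called higher and 12.9% lower. The list held 35 genes, the rest of which did not reach the filter, and 7 of the 35 had 0 counts in all 3 Skin libraries. The filter favours such calls, since 7 of the 17 genes reached it only with the Skin libraries, Dmkn and Calm4 among them, and of the 10 that reached it without Skin 5 were higher. With a weight per library 3 were called higher, and 2 in the fit of the Skin and Blood libraries alone. Dmkn, a secreted protein of the upper epidermis, rose by 6.61, the envelope protein gene Evpl by 5.53, the calmodulin-like Calm4 by 4.27 and the lipid transporter gene Abca12 by 4.96 (limma adjusted p from 5.95e-06 to 0.000303). Tgm3 and Asprv1 had differences of -0.48 and 0.01 and did not pass (limma adjusted p = 0.757 and 0.993).

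Of 16 tested proteases and inhibitors, 5 were higher and 1 was lower, against 5.9% and 12.9% of all genes tested. Of the 36 genes of this list that were measured, 19 had 0 counts in all 3 Skin libraries. Only 1 was called higher without Skin replicate 1, and 3 were without Skin replicate 3. With a weight per library 1 was higher, and in the fit of the Skin and Blood libraries alone 0. The cathepsin inhibitor gene Stfa1 was lower, at -2.28 (limma adjusted p = 0.0358), a call lost without any 1 of the 3 Skin libraries, without Blood replicate 2 and without Spleen replicate 2 (limma adjusted p from 0.0502 to 0.0836). The inhibitors Serpinb5, which reached the filter only with the Skin libraries, and Serpinb2 rose by 3.61 and 4.06 (limma adjusted p = 0.00344 and 0.00398). Serpinb5 was at 82.0, 0.22 (the floor) and 32.5 scaled counts in Skin replicates 1, 2 and 3. Serpinb2 was at 653, 7.14 and 12.6, with 12.2 at most outside Skin. Klk5, a main target of LEKTI, had 0 counts in all 3 Skin libraries, and Klk7 was at 62.2, 0.22 and 0.28 scaled counts, the second of these being the floor. Klk14 was at 50.3, 4.55 and 3.74 and rose by 2.53 (limma adjusted p = 0.0166), a call that was lost without Skin replicate 1 (limma adjusted p = 0.144). The membrane-bound protease gene Prss8 rose by 2.07 (limma adjusted p = 0.0261), and its call was lost without Skin replicate 1 (adjusted p = 0.157) and without Skin replicate 2 (adjusted p = 0.162). Ctsl and Spint1 did not pass, at 0.33 and 0.19. Ctsl was called higher without Skin replicate 2, at 1.97 (limma adjusted p = 0.000182), but turned to -0.49 without replicate 1 and -0.48 without replicate 3, and Spint1 to -1.50 without replicate 1.

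Anxa8 was compared with its family. None of the 9 other annexins tested was called higher in Skin by limma (1 at an unadjusted p under 0.05) and 1 was lower, with a median log2 difference of 0.35, and 1 was called higher without Skin replicate 3. Over all genes tested 5.9% were called higher and 12.9% lower, so these counts do not set the annexins apart. Anxa1, abundant in neutrophils, was at 552, 246 and 580 scaled counts in Skin and 4168 ± 327 (SD, n = 3) in BM, a difference of -1.34 ± 0.32 (SE, limma adjusted p = 0.00652), which missed the threshold without Skin replicate 2 (limma adjusted p = 0.0618). Anxa2, the annexin with the highest Skin mean per kb, was at 193 scaled counts per kb in Skin and at between 59.2 and 248 in the other tissues, while Anxa8 was at 146 in Skin and at most 3.84. Anxa9, Anxa10 and Anxa13 had 0 counts in all Skin libraries. Anxa9, Anxa6 and Anxa4 had log2 differences of -1.49, -0.87 and 1.07 (limma adjusted p from 0.104 to 0.132). Anxa3 and Anxa5 had differences of 0.57 and 0.35 (limma adjusted p = 0.529 and 0.644), and turned to -0.67 without Skin replicate 2 and to -0.29 without Skin replicate 1. Anxa7 and Anxa11 were at 95.4 ± 63.5 and 121 ± 42.1 scaled counts (SD, n = 3) in Skin.

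**Figure D3:**
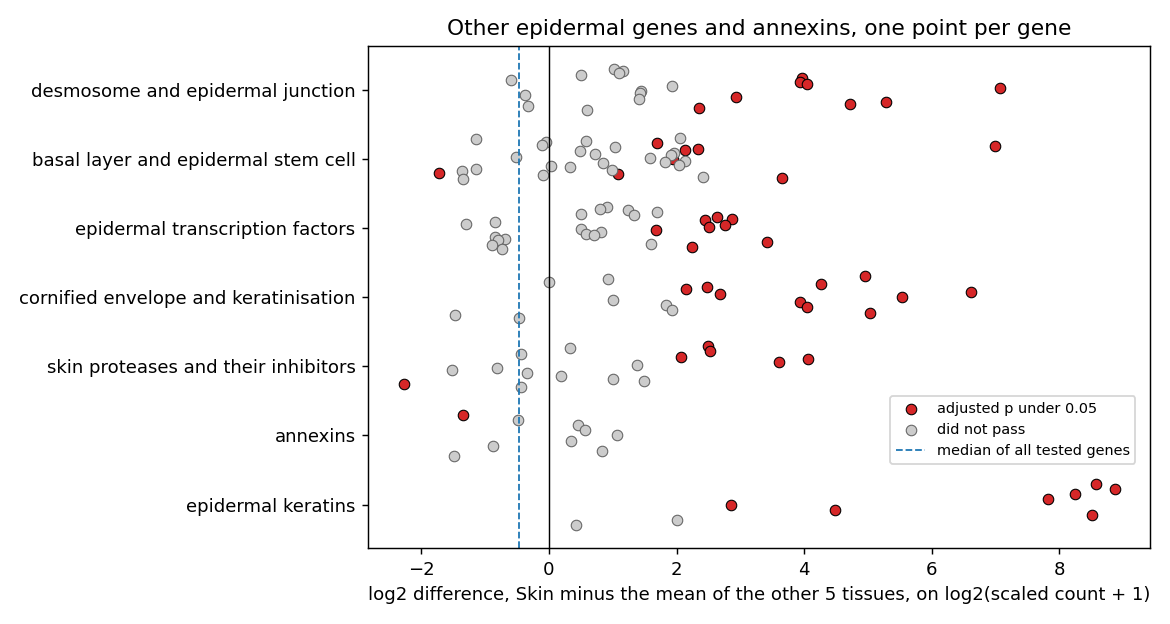
Log2 difference of Skin from the mean of the other 5 tissues for the tested genes of 7 lists that leave out the 6 epidermal genes; each point is a gene, and red points passed limma at an adjusted p under 0.05. The keratins reach the highest differences, up to 8.87 for Krt10, with 7 of 9 called, followed by Dsp at 7.07 in the junction list and Col17a1 at 6.99 in the basal list, while 1 of the 9 annexins passed and was lower; the dashed line is the median of all 16157 genes, -0.47.

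Of 9 tested epidermal keratins, 7 were higher in Skin and none lower by limma (0 at an unadjusted p under 0.05), with a median log2 difference of 7.83, where 5.9% of all genes tested were called higher and 12.9% lower. Here too 5 of the 9, Krt1, Krt2, Krt10, Krt17 and Krt79, reached the filter only with the Skin libraries, and of the other 4 Krt5, Krt14 and Krt15 were higher. Krt10, Krt1, Krt5 and Krt14 rose by 8.87, 8.57, 8.50 and 8.24 (limma adjusted p from 9.44e-09 to 1.86e-06), and Krt79 and Krt80 did not pass, Krt79 being called higher without Skin replicate 2 (limma adjusted p = 0.0462) or without Skin replicate 3 (limma adjusted p = 0.0387). The summed level of the 13 keratins was 14093, 5305 and 998 scaled counts in Skin replicates 1, 2 and 3 and at most 134 elsewhere. The sum of the 6 epidermal genes, 1945, 3257 and 232, was likewise lowest in replicate 3, but was highest in replicate 2 where the keratin sum was highest in replicate 1.

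Genes of other cells were also measured in these libraries, where 5.9% of all genes tested were called higher in Skin and 12.9% lower. The higher calls of the gut and lung list and the lower calls of the neutrophil list were near these shares. Of 13 tested fibroblast and dermis genes, 5 were higher in Skin, their sum being 5683, 2610 and 1387 scaled counts in replicates 1, 2 and 3, against up to 15318 in Intestine. Of 10 tested Langerhans cell, mast cell and epidermal T cell genes 4 were higher (2 without Skin replicate 1). Mcpt4 and Cma1 reached the filter only with the Skin libraries, and of the other 8 genes 3 were higher. Mcpt4 was at 170, 7.14 and 7.91 scaled counts in Skin replicates 1, 2 and 3. Of 5 tested melanocyte genes 1 was higher, and 0 without Skin replicate 1 or 2 and 2 without replicate 3. Of 18 tested genes of gut and lung epithelium 1 was higher, Nkx2-1, and 1 lower, Muc2, with 3 higher without Skin replicate 1 and 2 without replicate 3. None of them was called lower in 10 of the 18 fits that left out 1 library: those without BM replicate 1 or 3, Blood replicate 3, Lung replicate 2 or any 1 of the Spleen or Skin libraries. Without Intestine replicate 2, 2 were called lower. Of 21 neutrophil identity genes, 3 were lower (Ly6g, Retnlg and Wfdc21) and 3 higher (Il1b, Hdc and Il1r2), with 8 higher without Skin replicate 1, 0 higher and 10 lower without Skin replicate 2 and 7 lower without Skin replicate 3. The neutrophil sum was 3517, 51947 and 23025 in Skin replicates 1, 2 and 3, and from 1997 to 2388 in Intestine, where the 6 epidermal genes were at or near the floor apart from Anxa8, one library of Spink5 and one of Trp63. The part of keratinocytes or of other skin cells in the levels of the 6 genes was not tested, and in bulk libraries fewer cells of a type and less RNA per cell cannot be told apart.

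**Figure D4:**
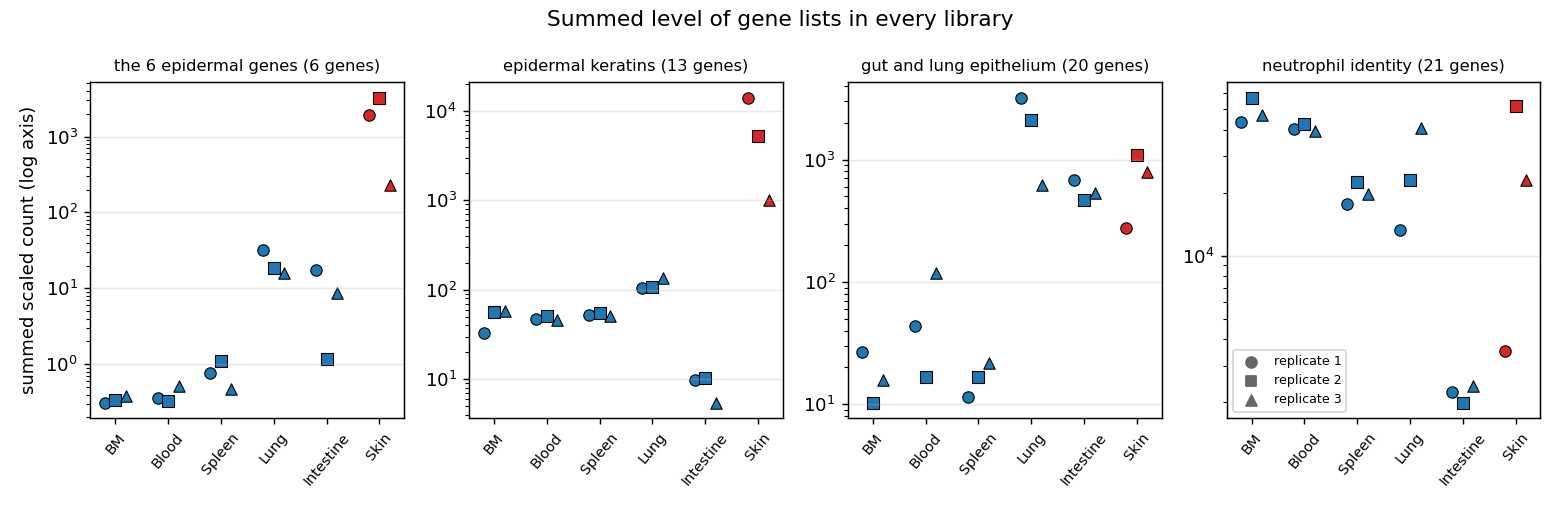
Summed scaled counts, on log axes, of the 6 epidermal genes, 13 epidermal keratins, 20 genes of gut and lung epithelium and 21 neutrophil identity genes in all 18 libraries; each point is a library. The epidermal genes and the keratins are high in Skin alone, with keratin sums from 998 to 14093, whereas the gut and lung epithelium sum is high in Lung, Intestine and Skin and the neutrophil sum is lowest in Intestine and in Skin replicate 1. In Skin, 8 of the 20 gut and lung genes had 0 counts in all 3 libraries. Nkx2-1 alone was at 167, 503 and 206 in Skin replicates 1, 2 and 3.

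Genes with a profile most like the mean profile of the 6 were sought among 14746 protein-coding genes by Pearson's r of log2 values over the 18 libraries, which share the contrast of Skin with the rest. The 10 highest were Dmkn (r = 0.964), Krt1 (0.964), Krt14 (0.962), Krt10 (0.958), Krt15 (0.958), Evpl (0.953), Calm4 (0.946), Krt5 (0.939), the interleukin 22 receptor subunit Il22ra1 (0.937) and the predicted gene Gm11168 (0.929). Gm11168 reached 37086 scaled counts in Skin replicate 2 and up to 2802 outside Skin.

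By single gene, the likest profiles were Krt1 for Dsg1a (r = 0.976), Calm4 for Dsc3 (0.992), Spink5 for Trp63 and Trp63 for Spink5 (0.972), Evpl for Anxa8 (0.965) and Hif3a for Trim29 (0.951). The second likest were Dmkn for Dsg1a (0.970), Dsg1a for Dsc3 (0.946), Krt14 for Trp63 (0.956), 1700123L14Rik for Spink5 (0.924), Gm21897 for Anxa8 (0.965) and Krt5 for Trim29 (0.949). Among the 6 genes, all pairs had r between 0.845 and 0.972 over the 18 libraries. All 6 were chosen for high Skin levels, which makes such values high, so nothing is read from them. Over the 15 libraries without Skin, where most values are at or near the floor, Dsc3 with Trim29 had r = 0.923, Dsc3 with Dsg1a 0.885 and Trp63 with Spink5 0.780. Other pairs were near 0 there, such as Trp63 with Dsc3 at -0.009, Trp63 with Dsg1a at -0.011 and Spink5 with Trim29 at 0.056. Dsc3, Dsg1a and Trim29 each had their highest values outside Skin in Lung replicates 2 and 3, and Trp63 and Spink5 theirs in Lung replicate 1.

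The promoter of Anxa8 is shown because p63 belongs to the 6 genes and its family binds a known core motif. The promoter table used here, 300 bases from 250 before to 50 after each RefSeq start on GRCm38.p6, held 1 of the 6 genes, Anxa8 (chr14:34085729-34086028, plus strand), and that of Krt5 (chr15:101712856-101713155, minus strand) is set beside it. Capitals mark matches to the p53-family core, which is CNNG, 6 bases of any kind, and CNNG again and reads the same on both strands.
Anxa8: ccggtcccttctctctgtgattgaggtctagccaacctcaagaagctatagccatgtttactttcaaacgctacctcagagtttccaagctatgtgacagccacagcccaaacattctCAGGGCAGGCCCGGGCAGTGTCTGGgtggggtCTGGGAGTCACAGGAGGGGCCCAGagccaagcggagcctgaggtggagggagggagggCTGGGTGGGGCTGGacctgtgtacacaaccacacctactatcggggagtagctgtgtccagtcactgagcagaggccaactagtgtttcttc
Krt5: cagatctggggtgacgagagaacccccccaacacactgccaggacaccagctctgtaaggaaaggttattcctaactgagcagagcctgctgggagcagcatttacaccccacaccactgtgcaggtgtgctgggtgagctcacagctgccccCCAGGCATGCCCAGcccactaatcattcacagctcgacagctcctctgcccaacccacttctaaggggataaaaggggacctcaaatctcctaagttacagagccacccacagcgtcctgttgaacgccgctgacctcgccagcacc
The Anxa8 window held 5 matches, at bases 119 to 132, 130 to 143, 151 to 164, 161 to 174 and 209 to 222 counted from its 5′ end, some of them overlapping, and the Krt5 window 1, at bases 154 to 167. The motif is common, since 70.2% of the 32851 promoters of that length hold at least 1 match on either strand. The AP-1 motif TGANTCA (held by 7.81% of promoters) and the TATA box TATAAA (13.6%) were in neither window.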

How the data were processed

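The authors sorted neutrophils, amplified cDNA from total RNA with the Ovation Single Cell RNA-Seq System and read 61-nt single ends, per the labels' protocols. The submitters' processing notes name CASAVA, RSEM 1.3.1, limma and mm10, without roles; the annotation is not given in the sources used here. The deposited table, whose name speaks of TPM, holds a signal for each gene. The values themselves show it to be the authors' estimated count with 0.5 added, per 1000000 of a library size that differs from the summed counts. Estimated counts were recovered from each library's floor. Between 50.2% and 66.9% of detected genes' counts were whole (within 0.01), so no count test was run.

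limma 3.58.1 (R 4.3.3) was fitted to log2(scaled count + 1) with a prior that follows the mean level. Genes needed at least 1 scaled count in 3 or more libraries, and p-values were adjusted over all of them by Benjamini and Hochberg's method, with a threshold of 0.05. One fit held all 18 libraries, for Skin against the mean of the other 5 tissues, and another the 15 without Skin. A log2 difference on this scale understates the change of low genes. Steps were tested on simulated data. Gene positions, exon lengths and transcripts came from GENCODE vM21.

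The genes and lists were chosen with earlier results of these data known. Genes named from each list are up to 4 with the smallest and up to 2 with the largest adjusted p, plus all desmosomal cadherins, all annexins, Klk5, Klk7, Klk14, Krt5 and Krt14. Jup, Pkp3, Notch1, Stfa1, Lgr5, Lgr6, Lor, Flg and the genes named from the lists for other cells were chosen after their values were seen. Alternatives were other pseudocounts, filters and scalings, a replicate block, library weights, Blood as the reference, and leaving out each library; total-count scaling was added after seeing the data.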

Additional observations from a re-analysis of the deposited data

How the results depend on the processing

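The 6 genes' Skin differences stayed positive under all alternatives run, except that Dsc3 did not reach the filter of 5 scaled counts and has no value there. Numbers of genes called higher in Skin moved by over 1.5 times as follows. With a weight per library (0.107 to 0.440 for Skin, at least 0.535 elsewhere), 2 junction, 2 basal, 0 transcription factor, 3 cornified and 1 protease gene were called, with 101 higher and 144 lower of all genes. In the fit of the 6 Skin and Blood libraries alone these were 1, 0, 0, 2 and 0, with 86 and 23. With no filter 3 protease genes were called, with a filter of 5 scaled counts 5 transcription factors, with median-ratio scaling 1 annexin, with quantile normalization 15 basal genes, and with counts per 1000000 of all counts 3 basal genes and 524 higher and 4027 lower of all genes. Against Blood 13 basal genes and 1 annexin were called. Leaving out 1 library gave 7 to 12 junction, 4 to 10 basal, 5 to 12 transcription factor, 6 to 10 cornified, 1 to 7 protease, 0 to 1 annexin and 6 to 7 keratin genes, and 837 to 1101 higher and 1386 (without Skin replicate 2) to 2702 lower of all genes. The cause of these shifts was not tested.

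Anxa8 kept its limma F test call under all alternatives, with adjusted p from 6.02e-05 to 0.0271. Its Intestine difference from the other 4 tissues missed the threshold with a pseudocount of 2 (1.14, adjusted p = 0.0503), with no filter (1.52, adjusted p = 0.0663) and with quantile normalization (1.15, adjusted p = 0.0930), and was 0.60 to 2.46 when 1 library was left out. In the fit of all 18 libraries the limma differences from Blood were 2.88 in Lung (adjusted p = 0.0582) and 2.25 in Intestine (adjusted p = 0.0667), and those from the other 4 tissues 2.30 (adjusted p = 0.0763) and 1.52 (adjusted p = 0.120). Leaving out 1 library gave 2.56 to 3.16 for Lung and 1.33 to 3.19 for Intestine against Blood, and 1.98 to 2.59 for Lung against the other 4.

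Libraries with the same replicate number showed little shared deviation. Of 45 same-number pairs of libraries 1 had a correlation of deviations above 0.1 (range -0.06 to 0.106). With so few libraries per tissue, this check cannot tell whether libraries of different tissues came from the same animals. The last Blood library also carries the submitters' letter D, where the last library of each other tissue carries C. Pairing by these letters was not tested. With the replicate number as a block, 932 genes were called higher and 2040 lower, and the Anxa8 F test had an adjusted p of 0.00565.

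Genes named as not passing changed sign in places. With counts per 1000000 of all counts, Ctnnd1 was at -0.21, Lamb3 at -0.66, Asprv1 at -0.81, Ctsl at -0.43, Spint1 at -0.17, Anxa3 at -0.24, Anxa5 at -0.46 and Krt80 at -0.37. With library weights Asprv1 was at -0.14, Anxa3 at -0.27 and Lgr6 at -0.36. Asprv1 was at -0.016 with a pseudocount of 2, and Postn at 0.19 with median-ratio scaling and 0.91 with quantile normalization. Against Blood, in either fit, Postn was at 1.21, Foxn1 at -0.27, Tgm3 at 0.12, Krt80 at -0.18 and Asprv1 at -2.09 (adjusted p = 0.00798 with all 18 libraries). Leaving out 1 library gave -0.67 to 1.44 for Anxa3, -0.29 to 1.11 for Anxa5, -0.13 to 0.19 for Asprv1, -0.69 to 1.92 for Ctnnd1, -0.49 to 1.97 for Ctsl, -0.44 to 1.31 for Foxn1, -0.48 to 2.26 for Klf5, -0.91 to 0.80 for Lamb3, -0.73 to 2.25 for Lgr6, -2.67 to 1.25 for Postn, -1.50 to 1.07 for Spint1, -1.97 to 0.51 for Tgm3 and -0.49 to 2.16 for Tjp1.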
